A study of Drosophila melanogaster with 9 samples.

Results

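The Odd-skipped and Snail families are 2 small groups of Drosophila transcription factors that bind DNA through zinc fingers. The Odd-skipped family holds *drm*, *sob*, *odd* and *bowl*, and the Snail family holds *esg*, *sna* and *wor*. Their 7 messenger RNAs were followed in BG3 cells after RNAi against Polyhomeotic (Ph RNAi), in wing imaginal discs, and in BG3 cells after a mock treatment (Mock RNAi). A probe set was taken as a member when the annotation of the array paired it with 1 gene symbol and that symbol was one of the 7. Each gene had exactly 1 such probe set, so there were 7 member genes of 11982, and 7 probe sets of 18768. The rule itself uses no measured value, although the families were picked with earlier results of these data known.

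Odd-skipped proteins are best known from the patterning of segments, gut and leg joints. *odd* is a pair-rule segmentation gene. The small protein encoded by *drm* binds the cytoplasmic and nuclear protein Lines, and this frees Bowl from Lines so that Bowl can act in the nucleus. In the wing disc, Bowl and Lines have opposing roles in the peripodial epithelium and the disc proper. Snail proteins are mostly repressors that use the corepressors CtBP and Groucho. *sna* directs formation of the embryonic mesoderm, *wor* acts in the asymmetric division of neuroblasts together with the other members, and *esg* keeps imaginal cells diploid and marks intestinal stem cells. Genes for such developmental regulators are typical targets of Polycomb silencing, in which PRC1, the complex that contains Ph, binds chromatin carrying histone H3 trimethylated on lysine 27.

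The 9 Affymetrix Drosophila Genome 2.0 arrays formed 3 groups of 3. The Ph RNAi arrays were made from BG3 cells, an established male line from the larval central nervous system, 5 days after treatment with dsRNA at 10 µg per well directed at sequence shared by *ph-p* and *ph-d*. The wing disc arrays came from *yw* larvae late in the last larval stage, with 12 to 15 discs from both sexes pooled in each replicate. The Mock RNAi arrays came from the same cell line, and no dsRNA is named for them, so that an effect of dsRNA itself and of Ph depletion cannot be told apart. The titles call the replicates biological without saying how they were separated, and the p-values therefore measure the spread between these samples, which may in part be technical.

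Values are log2 expression values made by the authors with GCRMA, a method that corrects background with probe sequences. In this scale probe sets fall into a lower mode, where weak signals are squeezed together and cannot fall further, and an upper mode. The lower peak of the BG3 arrays lay at 1.86 and the boundary between the modes at 4.87. The wing disc arrays appear to have been normalized apart, which is not stated (array medians of 0.827 to 0.842, against 2.21 to 2.23 in BG3 cells). Their boundary lay at 3.07. Discs and cells were therefore not compared by log2 value. They were compared by the percentile of a probe set among all 18768 of its own array, and by its mode. The boundary stood at the 63.4th to 63.5th percentile in discs and the 66.5th to 66.9th in BG3 cells, and percentiles below it have little meaning as levels. Arrays correlated at 0.9965 to 0.9982 within wing discs, 0.9904 to 0.9938 within Ph RNAi and 0.9917 to 0.9971 within Mock RNAi. The 3′ minus 5′ signal of the actin control, a sign of RNA integrity, was 1.38 to 2.06 in Ph RNAi and 1.73 to 2.26 in Mock RNAi (difference -0.18, two-sided exact permutation p = 0.6, where the smallest possible is 0.1). In wing discs it was 3.12 to 3.34, higher than on any BG3 array, so discs and cells also differed in this control. *ph-p* and *ph-d* were not analysed here, so depletion was not checked and arrays were grouped by title alone. All 9 measured wing disc markers lay above the boundary in discs. In BG3 cells 2 of 7 neuron markers did so in both groups, *elav* and *cpx*, while *nSyb* and *brp* lay in the lower mode.

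The array values of *bowl* and *drm* rose after Ph RNAi, *bowl* by 10.7-fold and *drm* by 3.77-fold. *odd* passed the test with a 1.33-fold difference inside the lower mode, a call lost under 10 of 14 alternative settings, every left-out array included. *sob* and the 3 Snail family genes were not called. All 7 members had a Mock RNAi mean in the lower mode, and 1 of them, *bowl*, had a mean in the upper mode after Ph RNAi. The call was an adjusted p under 0.05 in limma, with Benjamini-Hochberg adjustment over all 18768 probe sets. Where a Mock RNAi mean lies in the lower mode, as for all members, the fold depends on the background correction and is a ratio of array values rather than of transcripts. By the rule 2.42% of all probe sets were called higher and 1.18% lower. Among probe sets whose Mock RNAi mean lay below the boundary, 2.13% were called higher. The median log2 difference was 1.17 over the 4 Odd-skipped genes and 0.10 over the 3 Snail genes, beside -0.02 over all probe sets.

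**Figure D1:**
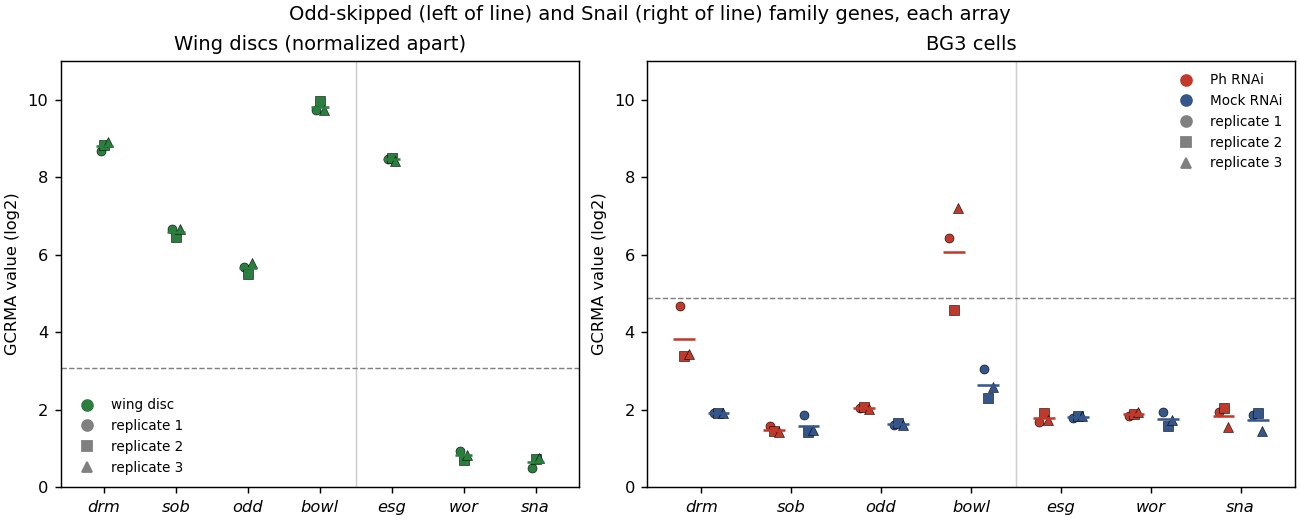
GCRMA values (log2, vertical axes) of the 7 genes on each array, in wing discs (left panel, apparently normalized apart and so not read on the scale of the right panel) and in BG3 cells (right panel, Ph RNAi left of Mock RNAi). Points are arrays, short lines are group means, and dashed lines mark the boundary between the lower and upper mode at 3.07 and 4.87. In BG3 cells *bowl* and *drm* separate between the groups, and in discs *wor* and *sna* lie at the bottom.

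*bowl* showed the larger of the 2 strong rises. Its log2 values were 6.42, 4.57 and 7.20 in Ph RNAi and 3.04, 2.29 and 2.59 in Mock RNAi. The lowest Ph RNAi array, replicate 2, was well above the highest Mock RNAi array, but the Ph RNAi arrays themselves were spread widely. The means were 6.06 ± 1.35 in Ph RNAi and 2.64 ± 0.38 in Mock RNAi (SD, n = 3 each). The log2 difference was 3.43 ± 0.54 (SE, 95% interval 2.24 to 4.61, limma adjusted p = 0.00366), which in folds is an interval of 4.73 to 24.4. It was the 101st largest rise among the 18768 probe sets. Against the Mock RNAi mean, *bowl* stood 3.79, 1.93 and 4.56 higher in Ph RNAi replicates 1, 2 and 3, so that all 3 arrays showed the rise. Without the lowest of them, Ph RNAi replicate 2, the log2 difference was 4.17 (adjusted p = 5.88e-05).

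*drm*, whose product acts upstream of Bowl, was higher on all Ph RNAi arrays, but no array reached the upper mode. Its values were 4.67, 3.39 and 3.42 in Ph RNAi and 1.91, 1.91 and 1.92 in Mock RNAi. The Mock RNAi arrays were almost identical, and all Ph RNAi arrays lay above them, replicate 1 the farthest. With a wider density bandwidth of 0.5 the boundary is 4.6, and 1 Ph RNAi array lies above it. The log2 difference was 1.91 ± 0.30 (SE, 95% interval 1.25 to 2.58, limma adjusted p = 0.00376), or 2.38- to 5.97-fold in array values, against a Mock RNAi mean of 1.91 that lies at the lower peak. The array with the highest *drm* value, Ph RNAi replicate 1, was not the one with the highest *bowl* value, Ph RNAi replicate 3. By the naming rules of the array, the suffix of the *bowl* and *drm* probe sets means that their probes match more than 1 transcript, although the annotation gives each a single gene. Members of the family share related zinc fingers, and cross-hybridization between them was not tested.

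*odd* differed little but evenly. Its values were 2.03, 2.07 and 2.00 in Ph RNAi and 1.60, 1.64 and 1.61 in Mock RNAi. The groups did not overlap, and both lay within the narrow band of the lower mode, around its peak at 1.86. The log2 difference was 0.42 ± 0.10 (SE, 95% interval 0.20 to 0.64, limma adjusted p = 0.0472). This call was lost when any 1 of the 6 arrays was left out (adjusted p from 0.0875 to 0.165), although the difference itself stayed between 0.40 and 0.43. Of all probe sets, 16.7% had a larger absolute difference. A difference inside the lower mode does not give an amount of transcript.

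*sob*, which lies between *drm* and *odd* on the chromosome, did not pass the test. Its values were 1.58, 1.44 and 1.43 in Ph RNAi and 1.86, 1.43 and 1.46 in Mock RNAi, so that the groups overlapped and the highest value was a Mock RNAi array. The log2 difference was -0.10 ± 0.12 (SE, 95% interval -0.37 to 0.17, limma adjusted p = 0.798). In all, the log2 values of 3 of the 7 members did not overlap between Ph RNAi and Mock RNAi, all 3 being higher, beside 8.94% of all probe sets higher without overlap and 20.4% in either direction.

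The 3 Snail family genes stayed in the lower mode with and without Ph RNAi, and 0 of 3 passed the limma test, also at an unadjusted p under 0.05. *esg* had values of 1.67, 1.92 and 1.73 in Ph RNAi and 1.79, 1.83 and 1.84 in Mock RNAi. *sna* had 1.95, 2.03 and 1.54 in Ph RNAi and 1.86, 1.92 and 1.43 in Mock RNAi. *wor* had 1.83, 1.88 and 1.94 in Ph RNAi and 1.94, 1.58 and 1.72 in Mock RNAi. For each of these genes the groups overlapped. The log2 differences were -0.05 for *esg* (95% interval -0.29 to 0.19), 0.10 for *sna* (-0.26 to 0.46) and 0.14 for *wor* (-0.12 to 0.40), with limma adjusted p values of 0.904, 0.866 and 0.692. The upper bounds amount to 1.14-, 1.37- and 1.32-fold. With signals squeezed at the bottom of the scale, these bounds hold for the array values and less surely for the transcripts.

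**Figure D2:**
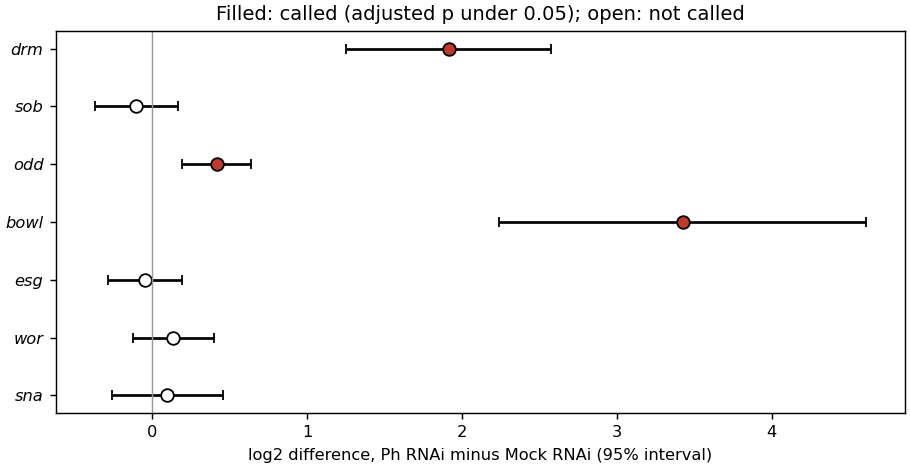
Log2 difference of each member, Ph RNAi minus Mock RNAi (horizontal axis), with 95% intervals from limma (n = 3 arrays a group). Filled points passed an adjusted p under 0.05. *bowl* (3.43), *drm* (1.91) and *odd* (0.42) are filled, and the intervals of the other members include 0.

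In wing discs the picture differed by family. All 4 Odd-skipped genes and *esg* lay in the upper mode, whereas *sna* and *wor* lay in the lower mode. A disc mean above and a Mock RNAi mean below the boundary of its own scale was thus found for 5 of the 7 members, beside 5.74% of all probe sets. Percentiles of different probe sets are not amounts of RNA, so each gene is compared only with itself. In bulk samples such as whole discs, fewer cells of a type and less RNA per cell cannot be told apart.

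*bowl* was at the 97.2nd to 97.8th percentile in wing discs (log2 values 9.73, 9.97 and 9.74), at the 66th to 74.8th in Ph RNAi and at the 51.9th to 62nd in Mock RNAi. *drm* was at the 93.6th to 94.5th percentile in wing discs (8.68, 8.83 and 8.91), at the 62.3rd to 66th in Ph RNAi and at the 31.7th to 34th in Mock RNAi. *odd* was at the 72.1st to 73.7th percentile in wing discs (5.68, 5.50 and 5.78), at the 39th to 42.3rd in Ph RNAi and at the 10.2nd to 12.2nd in Mock RNAi. For each of these 3 genes the percentiles of all disc arrays lay above those of all BG3 arrays. Between Ph RNAi and Mock RNAi the percentiles did not overlap either, but those of *drm* and *odd* lay below the boundary in both groups, so no order of levels is read from them.

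*sob* was at the 78.3rd to 79.8th percentile in wing discs (6.65, 6.45 and 6.66), at the 3.24th to 9.16th in Ph RNAi and at the 2.9th to 27.8th in Mock RNAi. *esg* was at the 92.4th to 92.8th percentile in wing discs (8.46, 8.50 and 8.43), at the 14.8th to 33.4th in Ph RNAi and at the 22.9th to 28th in Mock RNAi. Both genes thus stood far higher in discs than in either BG3 group, and the BG3 groups did not differ beyond their spread. *wor* was at the 42.3rd to 53.1st percentile in wing discs (0.92, 0.70 and 0.84), at the 26.8th to 35th in Ph RNAi and at the 9.07th to 33.2nd in Mock RNAi. *sna* was at the 21.5th to 45.2nd percentile in wing discs (0.50, 0.72 and 0.74), at the 7.49th to 40.3rd in Ph RNAi and at the 3.4th to 33rd in Mock RNAi. These 2 genes lay in the lower mode in all groups, so no order of levels is read from their percentiles. Without regard to the modes, the percentiles of 6 members were higher in wing discs than in Mock RNAi with no overlap, *sna* being the exception, beside 26.5% of all probe sets.

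**Figure D3:**
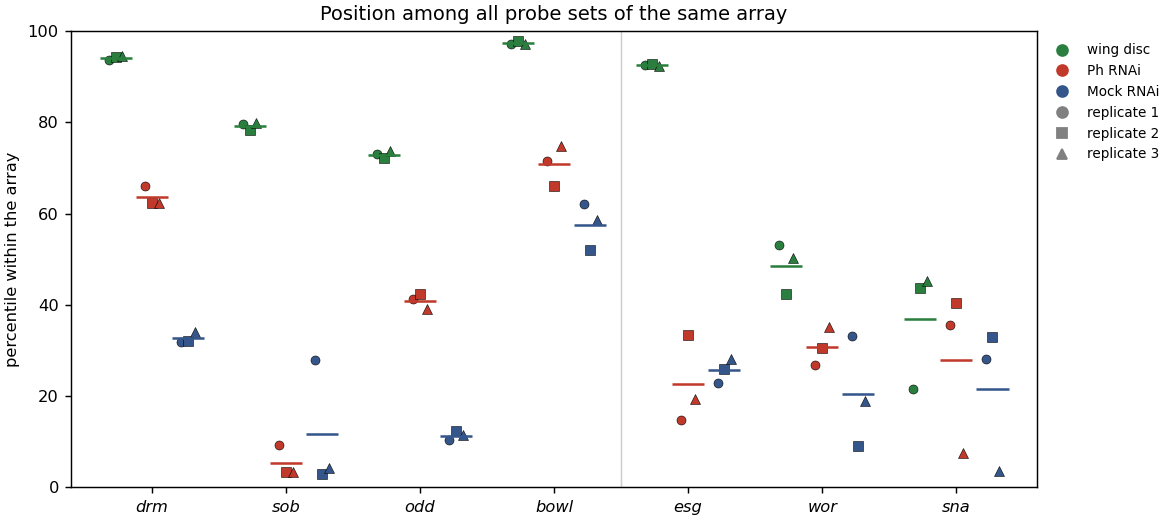
Percentile of each gene among all 18768 probe sets of the same array (vertical axis) in wing discs, Ph RNAi and Mock RNAi. Points are arrays and short lines are means of 3. All Odd-skipped genes and *esg* lie higher in discs than on any BG3 array, and of the BG3 values only some of *bowl* in Ph RNAi reach the upper mode.

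The members form 2 runs on chromosome arm 2L. In the annotated gene order *drm*, *sob* and *odd* lie almost side by side with *bowl* further along, and *esg*, *wor* and *sna* make the other run. Genes inside the runs and 6 protein-coding genes on each side were examined, 60 in all, of which 45 had a probe set with 1 symbol. Of these 45 neighbours, 2 were called higher and 1 lower, beside 3.6% of all probe sets called in either direction. *slp2*, which encodes a forkhead transcription factor of segmentation and lies beyond *bowl*, was 5.72-fold higher (means of 4.61 in Ph RNAi and 2.10 in Mock RNAi, limma adjusted p = 0.000633). In discs *slp2* lay in the lower mode, so no level is read from its percentile of 3.96. *for*, the gene of a cGMP-dependent protein kinase located between *odd* and *bowl*, was 2.12-fold higher (10.27 in Ph RNAi and 9.18 in Mock RNAi, adjusted p = 0.0129). Leaving out replicate 2 or 3 of Mock RNAi ended this call (adjusted p = 0.0532 and 0.0783). The 1 lower gene was *UK114*, at the outer edge of the Snail run (log2 difference -1.29, limma adjusted p = 0.0492), which was lost without any 1 array except Ph RNAi replicate 1 (0.109 to 0.16). The medians of the log2 differences of the neighbours were -0.005 around the Odd-skipped run (32 genes) and -0.03 around the Snail run (13 genes), so that the rises of *drm* and *bowl* were not shared by most genes near them.

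**Figure D4:**
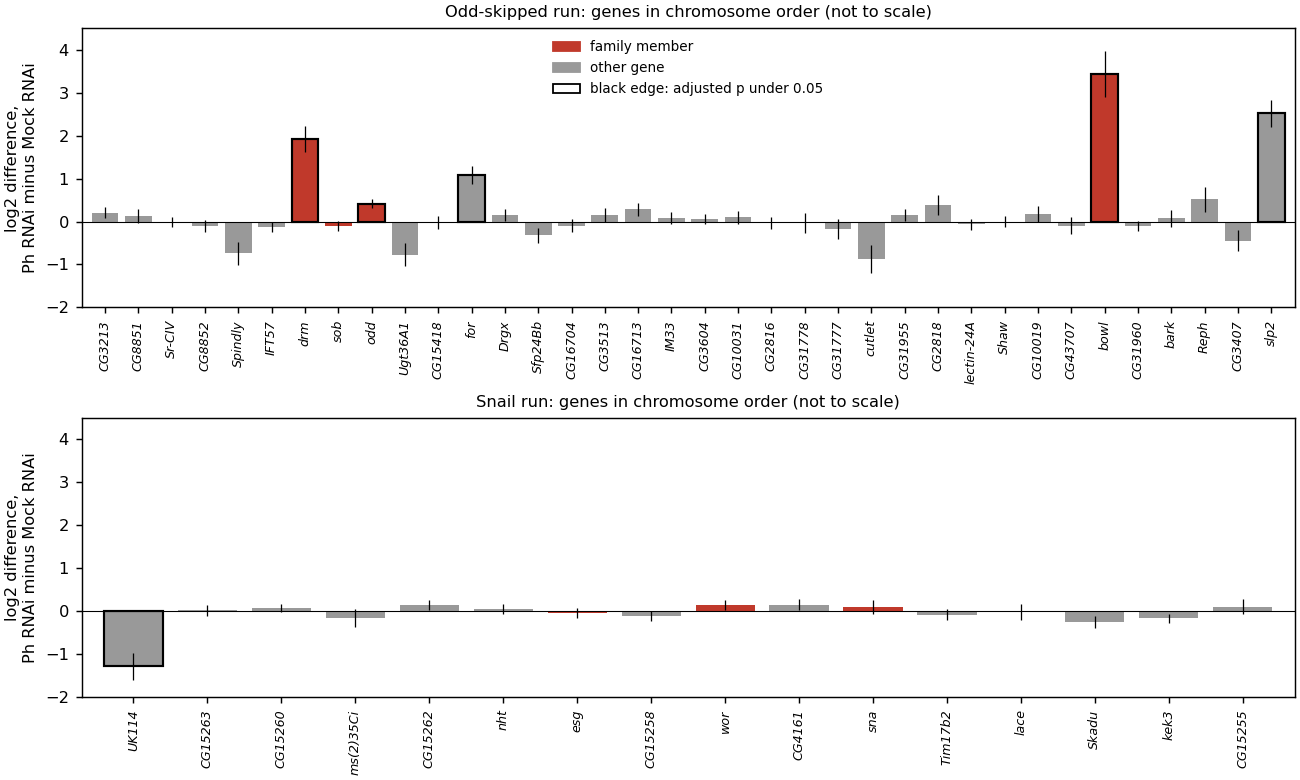
Log2 difference, Ph RNAi minus Mock RNAi (vertical axis), of the measured genes along both runs in chromosome order. Bars are limma estimates with SE, red bars are family members, and black edges mark an adjusted p under 0.05. *drm*, *bowl* and *slp2* stand out in the upper panel, and *UK114* is the single called gene of the lower panel.

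Of 16 listed genes that act with Odd-skipped proteins (Lines, upstream signals, Notch and leg joint genes, and the corepressor Groucho), 13 were measured. Of these, 3 were higher and 0 lower (4 and 0 at an unadjusted p under 0.05 in limma), with a median log2 difference of -0.003. Of all probe sets, 2.42% were called higher and 1.18% lower, and 6.71% were higher and 7.28% lower at that unadjusted threshold. The 3 were *dac*, a nuclear factor of the middle leg (4.45-fold, log2 means of 4.47 in Ph RNAi and 2.32 in Mock RNAi), *Dll*, a homeobox gene of the distal leg (3.29-fold, 3.93 in Ph RNAi and 2.21 in Mock RNAi), and *fng*, whose product adds sugars to Notch (3.33-fold, 9.42 in Ph RNAi and 7.68 in Mock RNAi). The limma adjusted p values were 0.00996, 0.00777 and 0.031. The other 2 probe sets of *Dll* were not called, with log2 differences of 0.81 and -0.08. The adjusted p of *fng* passed 0.05 when replicate 1 or 3 of Ph RNAi (0.0724 and 0.125) or replicate 2 or 3 of Mock RNAi (0.124 and 0.128) was left out. *lin*, which encodes Lines, was near the boundary of the modes with 4.88 ± 0.64 in Ph RNAi and 4.96 ± 0.28 in Mock RNAi (SD, n = 3 each) and did not pass the test (log2 difference -0.08 ± 0.34, SE, limma adjusted p = 0.953).

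Of 21 listed partners and regulated genes of Snail proteins, 15 were measured. Of these, 4 were called higher and 0 lower (7 and 2 at an unadjusted p under 0.05 in limma), with a median log2 difference of 0.21. Beside these counts, 2.42% of all probe sets were called higher and 1.18% lower (6.71% and 7.28% at the unadjusted threshold). *pros*, a homeodomain factor of dividing neural precursors, had means of 7.95 in Ph RNAi and 1.42 in Mock RNAi, a 92.4-fold ratio to a value at the bottom of the scale, and *insc*, an adaptor of asymmetric division whose expression in embryonic neuroblasts needs Snail proteins, was 21-fold higher (limma adjusted p = 1.89e-06 and 0.0018). The log2 difference of *insc*, 4.39, became 5.22 with Ph RNAi replicate 1 left out and 3.63 with replicate 3 of the same group left out. *twi*, which activates *sna* in the embryonic mesoderm, had means of 4.05 in Ph RNAi and 2.33 in Mock RNAi (3.28-fold, limma adjusted p = 0.000988), beside *sna* means of 1.84 in Ph RNAi and 1.74 in Mock RNAi. *T48*, a gene of mesoderm invagination, was 2.2-fold higher (limma adjusted p = 0.0305), a call lost without any 1 array except Ph RNAi replicate 2 (0.0552 to 0.112). The corepressor genes lay in the upper mode in both groups and were not called, *gro* with 8.72 in Ph RNAi and 8.73 in Mock RNAi, *CtBP* with 10.35 in Ph RNAi and 10.85 in Mock RNAi, and *ebi* with 6.16 in Ph RNAi and 6.68 in Mock RNAi. Of the related Scratch-type zinc finger genes, 2 of 3 were measured. *Kah* was 1.93-fold higher within the lower range (2.73 in Ph RNAi and 1.78 in Mock RNAi, limma adjusted p = 0.0346), a call lost without any 1 Mock RNAi array (0.0797 to 0.113), and *CG12605* had a difference of 0.00.

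Markers of other cell types moved in the same comparison. Called higher in limma were 3 of 6 glia markers, 3 of 11 neuroblast markers, 3 of 9 wing disc markers and 1 of 7 hemocyte markers. Also called higher were 1 of 3 muscle precursor markers, 1 of 5 tracheal markers and 0 of 7 neuron markers. Of these lists 0 markers were called lower, beside 2.42% of all probe sets called higher and 1.18% lower. The called neuroblast markers were *insc*, *pros* and *SoxN*, while *ase*, *dpn* and *mira* stayed in the lower mode and were not called. *insc*, *pros* and *twi*, the called muscle precursor marker, were also counted in the Snail list above, and the neuroblast list includes the member *wor*. At an unadjusted p under 0.05, 1 neuron, 1 neuroblast and 1 hemocyte marker were lower, and 0 neuron markers were higher, beside the 7.28% of all probe sets lower and 6.71% higher at that threshold. Of the glia markers *repo* had by far the largest difference (means of 10.23 in Ph RNAi and 3.12 in Mock RNAi), whereas *moody*, *gcm* and *Gli* were not called. The mean log2 level over the glia markers was 9.24 to 9.42 in Ph RNAi and 7.05 to 7.47 in Mock RNAi. That over the wing disc markers was 4.43 to 4.91 in Ph RNAi and 3.15 to 3.21 in Mock RNAi, with *vg* and *ap* in the lower mode in both groups. The part of such cells in the rises of *bowl*, *drm* and *odd* was not tested.

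The named genes most like *bowl* over the 9 arrays, by the root mean square difference in percentile, were *bi*, a T-box transcription factor gene (3.52 percentile points), *crb*, an apical polarity gene (3.95), and *blot*, a transporter gene (4.9). Their log2 differences between Ph RNAi and Mock RNAi were 3.04, 2.18 and 2.78, given as a description, since the likeness was measured on the same arrays. That of *crb* was 1.44 without Ph RNAi replicate 3. The call of *crb* (limma adjusted p = 0.04) was lost under 6 of 14 alternatives, among them leaving out any 1 Mock RNAi array (0.0974 to 0.14). In the Snail family the gene with the smallest p was *wor*, and those most like it were *CG18823* (5.08 percentile points), *CG31207* (6.16) and *CG31675* (6.36), all in the lower mode in every group.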

How the data were processed

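Total RNA was hybridized to 1-colour Affymetrix arrays. The deposited table holds log2 values per probe set, made by the authors with GCRMA (version and settings not given in the sources used here), with 1 column per array and no pooling of replicates. Of 18952 rows, 183 array controls and 1 row without values were dropped. The platform annotation gave 1 gene symbol to 13647 probe sets, several to 402 and none to 4719. Genes with several probe sets in the lists were read from the one with the highest mean over 9 arrays.

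Ph RNAi and Mock RNAi were compared on the 6 BG3 arrays with limma 3.58.1 under R 4.3.3 (lmFit, then eBayes with a mean-variance trend), two-sided, without a filter. SE and intervals are limma's moderated ones. The boundary of the modes is the minimum of a density with bandwidth 0.3. Gene order came from the RefSeq table of Release 6 plus ISO1 MT, and runs joined members less than 200 kb apart. On simulated data of 18768 probe sets for this comparison, 52 of 100 changed by 1 and 89 of 100 changed by 2 on the log2 scale were called in the right direction. Of the calls, 5.37% were false. Changes in both directions were planted in probe sets drawn from all, on noise without a floor. These rates therefore do not hold for the members, whose Mock RNAi means all lay in the lower mode. The number of arrays limits the precision. Wing discs were not tested against BG3 cells.

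All members were named, with the called genes of the partner lists (at most 4 a list), called neighbours, and the 3 genes most like the member with the smallest p in each family. The members and lists were chosen with earlier results of these data known. Alternatives covered the unit of the fit, normalization, centring, variance prior, a filter, all 9 arrays, a replicate block and leaving out each array. The methods of the study name more wing disc replicates than the 3 labelled arrays analysed here. No sequences were used.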

Additional observations from a re-analysis of the deposited data

How the results depend on the processing

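The calls of *bowl* and *drm* held under each of the 14 alternatives run for them, with log2 differences from 2.86 to 4.17 (adjusted p up to 0.0322) and from 1.49 to 2.13 (up to 0.0286). The filter on low values removed all 7 members, since each had a mean over the BG3 arrays below the boundary. The call of *odd* was lost under 10 of 14 alternatives with a difference of 0.41 with median centring (limma adjusted p = 0.0502), 0.42 without the variance trend (0.0913), 0.42 with all 9 arrays in the fit (0.151) and 0.40 to 0.43 with 1 array left out. Replicates share only a number here, with deviations of same-numbered arrays correlating at 0.15, 0.14 and -0.15. With the replicate number as a block, *odd* kept 0.42 but not its call (limma adjusted p = 0.0734), and the probe sets called higher were 621 in place of 454 and those called lower 297 in place of 222. With 1 array left out, differences ran from -0.18 to 0.04 for *sob* (0.038 without Mock RNAi replicate 1), from -0.12 to 0.005 for *esg* (0.0047 without Ph RNAi replicate 1), from -0.05 to 0.25 for *sna* (-0.055 without Mock RNAi replicate 3) and from 0.06 to 0.23 for *wor*, and none was called. Over all probe sets, the number called lower was 526 with all 9 arrays and 105 to 190 with 1 array left out (126 when replicate 3 of Ph RNAi was omitted, and 111 and 105 when replicates 2 and 3 of Mock RNAi were). Ranked among probe sets with 1 symbol, the mean disc percentiles were 75.5 for *sob* (79.2 among all), 67.6 for *odd* (73), 91.8 for *esg* (92.6) and 40.6 for *wor* (48.5). Without 1 disc array they ran from 32.6 to 44.4 for *sna* and from 46.3 to 51.7 for *wor*. A density bandwidth of 0.2 or 0.5, chosen after seeing the data, left 5 members above the boundary in discs, 1 in Ph RNAi and 0 in Mock RNAi. Without the variance trend the limma adjusted p was 0.0512 for *dac*, 0.0786 for *fng*, 0.0971 for *Kah*, 0.066 for *T48*, 0.111 for *UK114* and 0.116 for *crb*. After quantile normalization it was 0.0508 for *T48*, 0.0524 for *UK114* and 0.057 for *crb*, and with a robust variance prior 0.0524 for *crb* (limma).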
